A study of Mus musculus with 36 samples.

Results

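The 42 genes described here encode the proteins of the heart muscle sarcomere, the repeating contractile unit of striated muscle, together with partners at the Z-disc, the costamere and the intercalated disc. They were taken by name from a list chosen with earlier results of these data known. Each symbol matched 1 Ensembl gene identifier, and they are 42 of the 78239 genes counted in every library. By role the list holds 10 genes of the thick filament, 13 of the thin filament, 4 of titin and the M-band, 9 of the Z-disc and 6 of the desmin network, costamere and intercalated disc. RNA-seq of polyA RNA was made from heart, kidney and liver of wild-type male C57BL/6NCrl mice, an inbred strain, aged 8, 10 or 12 weeks, which spans the passage from adolescence to young adulthood. Each of the 9 groups (3 tissues by 3 ages) has 4 biological replicates, so there are 36 libraries, 12 per tissue, and no treatment or mutation separates them. Different mice were sampled at each age, and whole tissue was lysed, so a lower level from fewer muscle cells and one from less RNA per muscle cell cannot be told apart.

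In striated muscle, myosin thick filaments pull on actin thin filaments that are anchored at the Z-disc, and titin runs from the Z-disc to the M-band as an elastic spring. Calcium binding to troponin moves tropomyosin off the actin and allows the myosin heads to bind. Many of these proteins come in isoforms from separate genes: the adult mouse ventricle runs on the fast α-myosin heavy chain Myh6, while the slow β chain Myh7, skeletal α-actin Acta1 and slow skeletal troponin I Tnni1 are known from the fetal heart, and Myl4, Myl7 and Mybphl are known from the atria.

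The myosin heavy chain genes also carry a small family of muscle miRNAs in their introns, shown here because Myh7, the gene with the greatest called change between 8 and 10 weeks, hosts one of them. The mature sequences, from RefSeq, are printed with the seed (bases 2 to 8) in capitals and were located by an exact match in GRCm39. The miR-208a-3p sequence lies on the minus strand of Myh6 at chr14:55186529-55186550, miR-208b-3p on the minus strand of Myh7 at chr14:55213167-55213188, and miR-499-5p on the plus strand of Myh7b at chr2:155464813-155464833.
miR-208a-3p: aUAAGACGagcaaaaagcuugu
miR-208b-3p: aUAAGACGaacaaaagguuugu
miR-499-5p: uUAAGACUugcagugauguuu
The Myh6 and Myh7 miRNAs share their seed and differ at 3 of 22 bases (G10A, A16G and C18U, with the miR-208a-3p base first and positions counted from the 5′ end). The seed of miR-499-5p differs from theirs at 1 of 7 bases. The libraries count polyA transcripts of genes, so the levels of the mature miRNAs were not measured.

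The 250 bases before the annotated start are shown for Myh7 and Ttn, the called members with the greatest change between 8 and 10 and between 8 and 12 weeks. In GRCm39 the Myh7 window is chr14:55232084-55232333 (minus strand) and the Ttn window is chr2:76812892-76813141 (minus strand). Both lie upstream of the gene and outside protein-coding exons. Capitals mark a CATTCC match (the M-CAT motif of TEAD factors) in Myh7, here on the opposite strand, and a MEF2 site in Ttn, a palindrome that matches on both strands.
Myh7: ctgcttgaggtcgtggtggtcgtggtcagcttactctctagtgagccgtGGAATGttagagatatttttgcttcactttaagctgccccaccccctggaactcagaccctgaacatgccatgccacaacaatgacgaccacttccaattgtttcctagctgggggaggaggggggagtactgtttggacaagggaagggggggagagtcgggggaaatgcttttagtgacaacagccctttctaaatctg
Ttn: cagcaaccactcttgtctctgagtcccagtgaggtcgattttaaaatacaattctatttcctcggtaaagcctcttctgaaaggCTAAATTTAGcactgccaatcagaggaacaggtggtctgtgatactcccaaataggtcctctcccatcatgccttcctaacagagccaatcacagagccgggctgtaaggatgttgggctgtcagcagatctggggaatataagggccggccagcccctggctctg
RefSeq promoters (GRCm38.p6) were listed for 35 of the 42 genes, in 49 windows. Searched on both strands, CATTCC was in 13 of the 49 windows, beside 12.6% of all 32536 windows of this length. The MEF2 site was in 8 of the 49 beside 2.89%, the CArG box bound by SRF in 9 beside 1.48%, and TATAAA in 4 beside 12.3%. A match is a run of letters in the window and shows no binding.

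Total counted read pairs per library ran from 21743131 to 29791297 in heart, 21323021 to 32670858 in kidney and 21031599 to 33637390 in liver. The 42 genes took 7.94% to 10.1% of the counted pairs in heart, against 0.0256% to 0.0404% in kidney and 0.0161% to 0.0195% in liver. Heart libraries carried the ventricular markers, a list of 10 genes whose levels summed to between 3510 and 4509 CPM (counts relative to the library size, scaled with TMM factors within each tissue). Atrial markers summed to between 492 and 625 CPM over a list of 12 genes, of which 2 were under 1 CPM in every heart. The same list summed to 392 to 490 CPM in kidney and 1573 to 2045 CPM in liver, so its sum does not measure atrial tissue. Sln, the atrial sarcolipin, had no count in 6 of 12 hearts and at most 0.245 CPM. Bmp10 had 1 count in 1 heart, and the natriuretic peptide gene Nppa was between 2.44 and 27.5 CPM. Most of the sum came from other genes of the list. The atrial members were at 0.0402 to 0.9695 CPM for Myl7, 0.884 to 1.48 for Myl4 and 0.0454 to 0.201 for Mybphl. Of the atrial list, Nr2f2 fell from 8 to 12 weeks (log2 fold change -0.38). From 8 to 10 weeks Upk3b, also counted in every kidney and liver, rose (3.61) and Tbx5 fell (-0.63). Their part in the results below was not tested.

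**Figure D1:**
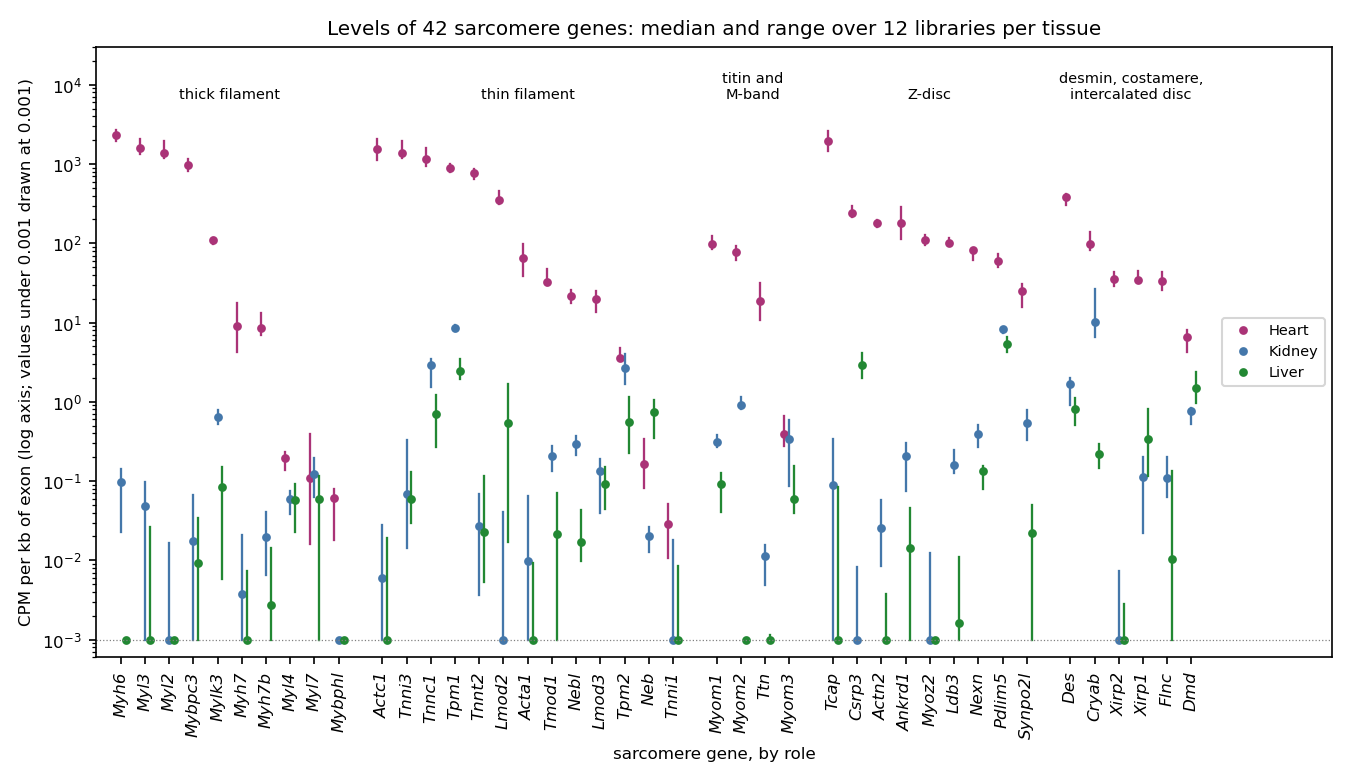
Levels of the 42 genes by role in CPM per kilobase of exon on a log axis, with the median (point) and the range (line) over the 12 libraries of heart, kidney and liver, and values under 0.001 drawn at 0.001. Heart lies above the other tissues for most genes, and the ranges meet for Myl7, Myom3, Tnni1 and Tpm2 in kidney and for Myl7 in liver.

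Compared per kilobase of exon, the heart was dominated by a small group of genes. Exon length here merges the exons of all annotated transcripts of a gene, such as 5792 bases for Actc1 and 948 for Tcap. The length of the transcripts expressed was not measured, so the order depends on this choice. In CPM not divided by length, the median was 23289 for Myh6, 8869 for Actc1 and 1872 for Tcap. Myh6, the motor of the adult ventricle, was highest with a median of 2335 CPM per kb (range 1961 to 2696), followed by Tcap (telethonin, the titin cap at the Z-disc) at 1974 (1443 to 2616). The essential light chain Myl3 at 1572 CPM per kb, cardiac α-actin Actc1 at 1531, the regulatory light chain Myl2 at 1389, troponin I Tnni3 at 1386 and troponin C Tnnc1 at 1147 came next. Neighbours in this order had overlapping ranges over the 12 libraries. Mybpc3 (cardiac myosin binding protein C) at 963, Tpm1 at 882 and Tnnt2 at 761 CPM per kb completed the 10 highest. Of the 42 genes, 36 had a median above 10 CPM and 16 a median above 1000 CPM.

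At the other end stood the isoforms of other muscles and stages. Myh7 was at 9.08 CPM per kb. Tnni1 at 0.0288, Mybphl at 0.0608, Myl7 at 0.11, Neb (nebulin of skeletal muscle) at 0.163 and Myl4 at 0.197 CPM per kb were the lowest. Ttn, with exons spanning 117522 bases, had a median of 2215 CPM but only 18.8 CPM per kb. The gene with the least spread over all 12 heart libraries was Mylk3, the cardiac myosin light chain kinase, with a coefficient of variation of 5.32%, and those with the most were Myl7 at 87.4%, Tnni1 at 46.5% (on 1 to 5 counts per library), Myh7 at 46.0% and Neb at 45.4%.

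Between 8 and 12 weeks in heart, 4 of the 40 members with enough counts passed the test: Lmod3, Ttn and Myl2 rose and Myh7 fell (edgeR's quasi-likelihood test, Benjamini-Hochberg adjusted p under 0.05 over all 15137 genes tested). This is 10.0% of the members tested, beside 4.56% of all genes tested, with 2.36% rising and 2.21% falling. As the list was chosen with earlier results of these data known, these shares are a description and not an independent comparison. An unadjusted p under 0.05 was found for 14 of 40 members, beside 23.4% of all genes. The ages did not overlap for 4 members that were higher at 12 weeks (Lmod3, Myl2, Dmd and Neb), beside 6.92% of all genes, and for 1 that was lower (Des), beside 5.73%. Between 8 and 10 weeks 1 member, Myh7, passed and fell, beside 1.06% of all genes, and 3 members were lower with no overlap (Myh7, Acta1 and Tnnt2), beside 4.72%. Between 10 and 12 weeks none passed by edgeR, beside 0.0396% of all genes, while 10 of 40 had an unadjusted p under 0.05, beside 11.7% of all genes, and DESeq2 called 1 member (Myl2, higher) and limma-voom none. Myh7, Myl2, Ttn and Myom1 were higher at 12 than at 10 weeks with no overlap, beside 3.26% of all genes.

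Most members moved little. The median log2 fold change of the 40 was 0.08 from 8 to 12 weeks, beside 0.00 over all genes tested, -0.06 from 8 to 10 weeks and 0.10 from 10 to 12 weeks. From 8 to 10 weeks 25 of 40 were lower at the older age, beside 7707 of all 15137 genes. From 10 to 12 weeks 31 of 40 were higher, beside 7677, and from 8 to 12 weeks 24 of 40 were higher, beside 7582. Neither the troponins nor the tropomyosins nor any gene of the Z-disc and desmin groups passed the test in any heart comparison. In data simulated on these libraries the same fit found 74% of planted 2-fold changes and 60% of 1.5-fold changes between 8 and 12 weeks. The planted genes were drawn at random from all tested genes, so these are not rates for the members. Changes under 1.5-fold were not planted. The 3 comparisons share groups with each other, so they are not independent.

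**Figure D2:**
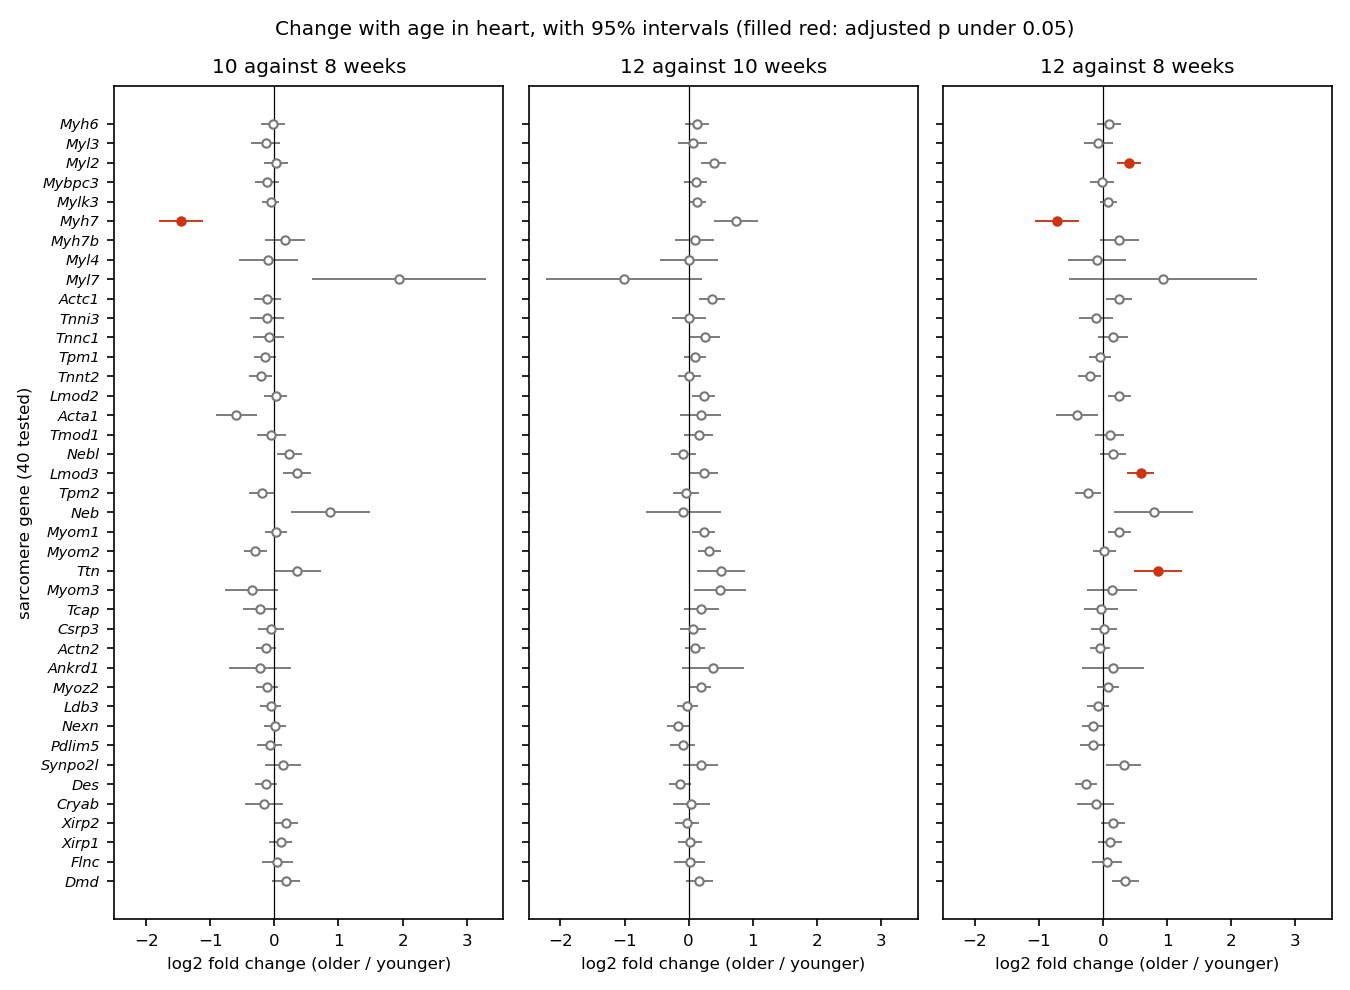
Log2 fold changes (older over younger age) of the 40 tested members in the 3 heart comparisons. Bars are nominal 95% intervals from the SE and a normal distribution, which are narrower than the edgeR test implies. Filled red points mark an adjusted p under 0.05. Myh7 alone is filled at 10 against 8 weeks, and Myl2, Myh7, Lmod3 and Ttn are filled at 12 against 8 weeks.

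The clearest change in the thick filament was in Myh7, the slow β-myosin heavy chain. Its levels in the 4 hearts at 8 weeks were 178, 176, 178 and 118.5 CPM, at 10 weeks 60.0, 62.5, 72.7 and 42.3 CPM, and at 12 weeks 82.9, 134, 79.4 and 98.4 CPM. Every heart at 10 weeks lay below every heart at 8 weeks and also below every heart at 12 weeks, while the ranges at 8 and 12 weeks overlapped through the fourth heart of the first age and the second of the last. The log2 fold change was -1.45 ± 0.18 (SE) from 8 to 10 weeks (edgeR adjusted p = 0.0013) and -0.72 ± 0.17 from 8 to 12 weeks (adjusted p = 0.031). From 10 to 12 weeks Myh7 differed by 0.73 ± 0.17, which did not pass the test (adjusted p = 0.23), although the ages did not overlap.

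Leaving out single hearts did not undo the 10-week difference, for which the adjusted p stayed between 0.00027 and 0.0080 in 12 refits. The 12-week difference lost its call in 4 of 12 refits, those without replicate 2 or 3 at 8 weeks or replicate 1 or 3 at 12 weeks, with adjusted p from 0.069 to 0.087. A further limit is that 24.7% of the exon bases of Myh7 are shared with Mhrt, a long noncoding RNA on the opposite strand. The counting ignored strand, so pairs in the shared bases count for neither gene. Mhrt itself was at 31.1 to 43.8 CPM at 8 weeks, 27.4 to 55.0 at 10 weeks and 38.4 to 103 at 12 weeks, and did not pass the test in any heart comparison (adjusted p = 0.081 for 12 against 8 weeks).

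Myh6, the fast chain beside it on chromosome 14, was at 20917, 22721, 24901 and 23051 CPM at 8 weeks. It was at 23095, 23813, 23483 and 19559 CPM at 10 weeks and at 24634, 25150, 21508 and 26891 CPM at 12 weeks. The ages overlapped throughout. The log2 fold change from 8 to 12 weeks was 0.10, with an interval of -0.09 to 0.29 (nominal 95%, from the SE). Myh7b, the third heavy chain of the list and host of miR-499-5p, was between 46.8 and 89.6 CPM and did not pass the test.

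Myl2, the regulatory light chain of the ventricle, rose late. It was at 5346, 5181, 4813 and 4772 CPM at 8 weeks, at 4781, 4573, 5065 and 5964 CPM at 10 weeks, and at 7424, 6010, 6289 and 6960 CPM at 12 weeks. The 8- and 10-week hearts overlapped, and all 4 hearts at 12 weeks lay above all 8 younger hearts. The log2 fold change from 8 to 12 weeks was 0.41 ± 0.10 (edgeR adjusted p = 0.029), and from 10 to 12 weeks 0.39 ± 0.10 (adjusted p = 0.23). The first call was lost in 5 of 12 refits that left out a heart (replicates 2, 3 and 4 at 8 weeks, 1 and 3 at 12 weeks), with log2 fold changes between 0.34 and 0.45 over all 12. Its partner Myl3 did not pass in any heart comparison.

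Mybpc3 was at 4396, 4336, 4448 and 3748 CPM at 8 weeks, at 4368, 3911, 3880 and 3421 CPM at 10 weeks, and at 4027, 3988, 3994 and 4792 CPM at 12 weeks. The 3 ages overlapped, and the change from 8 to 12 weeks was -0.01 (interval -0.20 to 0.17). Myl7 was at 0.0402, 0.103, 0.182 and 0.390 CPM at 8 weeks, at 0.772, 0.0937, 0.9695 and 0.902 at 10 weeks, and at 0.371, 0.769, 0.0967 and 0.149 at 12 weeks, which is 1 to 25 counts per library. Its change from 8 to 10 weeks was 1.94 ± 0.69 and did not pass (edgeR adjusted p = 0.18). Over the 12 hearts its log2 level had a Pearson r of 0.31 with Myl4, 0.36 with Mybphl, 0.37 with Sln and -0.47 with Nppa (Spearman rho 0.27, 0.06, 0.28 and -0.40). None of the 4 relations passed a permutation test (adjusted p = 0.31 for each r and 0.52 to 0.87 for rho), and without the 2 hearts farthest from the Myl7 median r was 0.0015, 0.59, 0.17 and -0.31. Centred within each age, r was 0.48, 0.45, 0.51 and -0.27.

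**Figure D3:**
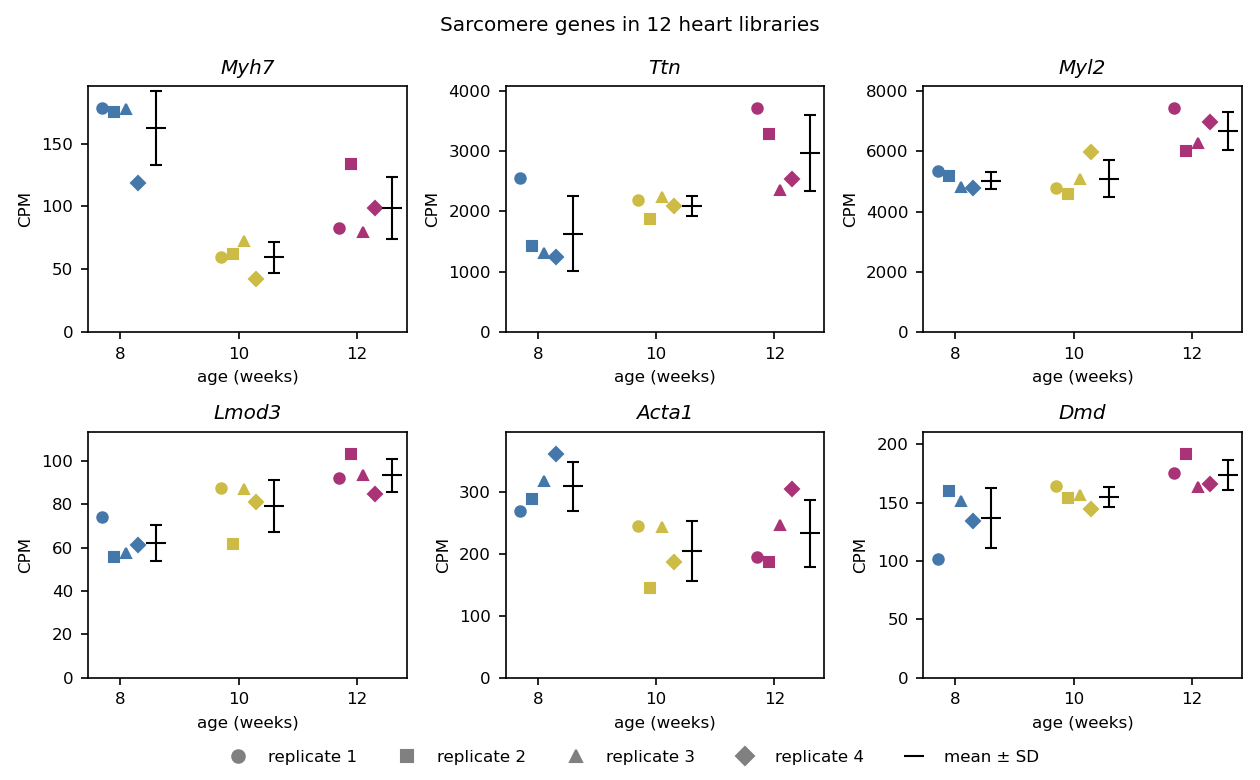
CPM in each of the 12 heart libraries (marker shape gives the replicate) with mean and SD (n = 4) at each age for Myh7, Ttn, Myl2, Lmod3, Acta1 and Dmd, each axis from 0. Myh7 is lowest at 10 weeks, Myl2 separates only at 12 weeks, and 1 heart at 8 weeks is far above the other 3 for Ttn and far below them for Dmd.

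Shares of paired isoforms were taken from counts per base of exon, which cancels the scaling of a library. The size of a share depends on the merged exon lengths, such as 3715 bases for Acta1 and 5792 for Actc1. The Myh7 length includes the 24.65% of its exon bases shared with Mhrt. These lengths are the same in every library, so they do not alter the log2 differences between ages. Myh7 made up 0.844%, 0.766%, 0.707% and 0.511% of Myh6 and Myh7 together at 8 weeks. It made up 0.259%, 0.261%, 0.308% and 0.216% at 10 weeks and 0.335%, 0.529%, 0.368% and 0.364% at 12 weeks. The 10-week hearts overlapped neither other age. The log2 ratio differed by -1.43 from 8 to 10 weeks and by 0.60 from 10 to 12 weeks (each p = 0.0286 by a two-sided exact permutation test, the smallest that 4 against 4 allows). Adjusted over 18 tests of 6 ratios both became 0.17 (Benjamini-Hochberg) and did not pass.

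Acta1, skeletal α-actin, made up 4.43%, 4.85%, 5.67% and 6.46% of Acta1 and Actc1 together at 8 weeks, 3.99%, 3.32%, 4.61% and 3.47% at 10 weeks, and 2.88%, 3.17%, 3.80% and 3.84% at 12 weeks. All hearts at 12 weeks lay below all hearts at 8 weeks, a log2 difference of -0.67 (exact permutation p = 0.0286, adjusted 0.17). The 10-week hearts overlapped both. Tpm2 stayed between 0.357% and 0.520% of Tpm1 and Tpm2, Myl4 at up to 0.0169% of Myl3 and Myl4, Myl7 at up to 0.0290% of Myl2 and Myl7, and Tnni1 at up to 0.0033% of Tnni1 and Tnni3. The lowest exact permutation p of these 4 ratios was 0.0857 (Myl7 over Myl2, 10 against 8 weeks).

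**Figure D4:**
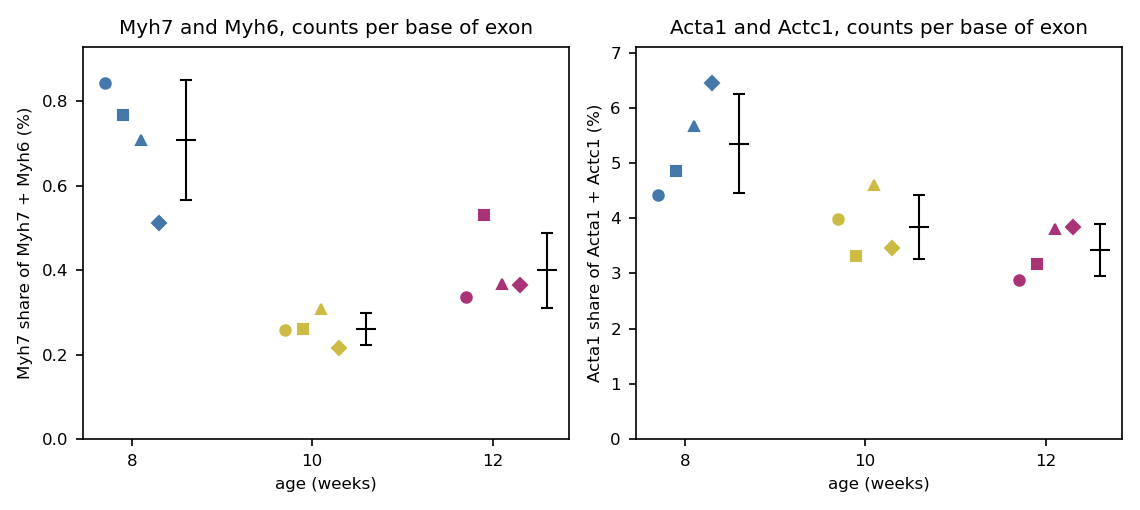
Share of Myh7 in Myh7 plus Myh6 and of Acta1 in Acta1 plus Actc1, in percent of counts per base of exon, for each of the 12 heart libraries (circle, square, triangle and diamond for replicates 1 to 4) with mean and SD (n = 4). The Myh7 share is lowest at 10 weeks (mean 0.261%) and the Acta1 share is lowest at 12 weeks (mean 3.42%).

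In the thin filament, Lmod3 rose. Lmod3 is a leiomodin, a protein that starts new actin filaments and is needed for thin filaments of normal length. It was at 74.3, 55.7, 57.3 and 61.1 CPM at 8 weeks, at 87.4, 61.6, 86.8 and 80.9 CPM at 10 weeks, and at 91.9, 103, 93.2 and 84.7 CPM at 12 weeks. All 4 hearts at 12 weeks lay above all 4 at 8 weeks, and the 10-week hearts overlapped both. The log2 fold change from 8 to 12 weeks was 0.59 ± 0.11 (edgeR adjusted p = 0.011), and the call held without any single heart (adjusted p from 0.0032 to 0.039). Its cardiac relative Lmod2 had a log2 fold change of 0.26 ± 0.09 (adjusted p = 0.10).

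Acta1 was at 270, 288, 317 and 361 CPM at 8 weeks, at 245, 144, 244 and 187 CPM at 10 weeks, and at 195, 188, 246 and 304 CPM at 12 weeks. Its 10-week hearts were all below its 8-week hearts, yet the change of -0.59 ± 0.16 did not pass (edgeR adjusted p = 0.095). Actc1, the main cardiac actin, was at 9074, 8795, 8232 and 8148 CPM at 8 weeks, at 9185, 6548, 7879 and 8101 CPM at 10 weeks and at 10237, 8943, 9716 and 11875 CPM at 12 weeks. The ages overlapped, with log2 fold changes of 0.25 ± 0.11 from 8 to 12 weeks (adjusted p = 0.16) and 0.36 ± 0.11 from 10 to 12 weeks (adjusted p = 0.24).

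The troponin complex, which couples calcium to contraction, did not pass the test at any age. Tnnt2 was at 7237, 7368, 7470 and 7637 CPM at 8 weeks, at 6614, 6972, 5758 and 6313 CPM at 10 weeks, and at 6095, 5982, 6117 and 7592 CPM at 12 weeks. Tnni3 was at 4443, 3693, 3529 and 3385 CPM at 8 weeks, at 3354, 3613, 3168 and 3723 CPM at 10 weeks, and at 3179, 2941, 3006 and 4809 CPM at 12 weeks. For both genes the fourth heart at 12 weeks stood above the other 3. That library was highest of its age for 20 of the 40 members, beside 21 for replicate 1 at 10 weeks and 17 for replicate 1 at 8 weeks. The fourth heart at 12 weeks had the highest share of pairs on the 42 genes, 10.1%. Without it, 10 members were called from 8 to 12 weeks, beside 12.2% of all genes: the 4 above, with Acta1, Des, Tnni3 and Tnnt2 lower and Lmod2 and Myom1 higher. Neb, at 2.22 to 9.07 CPM, was higher in every heart at 12 than at 8 weeks but did not pass (log2 fold change 0.79 ± 0.31, adjusted p = 0.14).

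Titin, the spring of the sarcomere, rose from 8 to 12 weeks. Ttn was at 2549, 1427, 1306 and 1252 CPM at 8 weeks, at 2191, 1869, 2238 and 2084 CPM at 10 weeks, and at 3711, 3281, 2353 and 2540 CPM at 12 weeks. The 10- and 12-week hearts did not overlap, and the 8-week hearts overlapped both through replicate 1 alone, whose level was above those of 2 hearts at 12 weeks. The log2 fold change from 8 to 12 weeks was 0.86 ± 0.19 (edgeR adjusted p = 0.021). Without replicate 1 at 8 weeks it was 1.16 (adjusted p = 0.00056). The call was lost without replicate 2, 3 or 4 at 8 weeks or replicate 1 or 2 at 12 weeks (adjusted p from 0.058 to 0.071).

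The change with age in the heart went weakly with gene length (Spearman rho 0.17 over 15132 genes). Over all tested genes the median log2 fold change from 8 to 12 weeks went from -0.09 for 1441 genes with under 2000 bases of exon to 0.11 for 614 genes with 16000 or more, and 11.2% of the latter were called. The tested members of that length were Ttn, Neb, Nebl, Myom1, Myom2 and Dmd. With a term for length in each library, the change of Ttn was 0.46 (edgeR adjusted p = 0.17) and was no longer called. Ttn, at 117522 bases, is far longer than the 16000 where the last class begins. The class medians therefore do not measure the term applied to it. The median deviation of the long genes was -0.11 to -0.01 (log2) in the 8-week hearts, -0.07 to 0.07 at 10 weeks and -0.02 to 0.16 at 12 weeks. The 8-week heart with the most Ttn had the lowest median for long genes, -0.11.

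**Figure D5:**
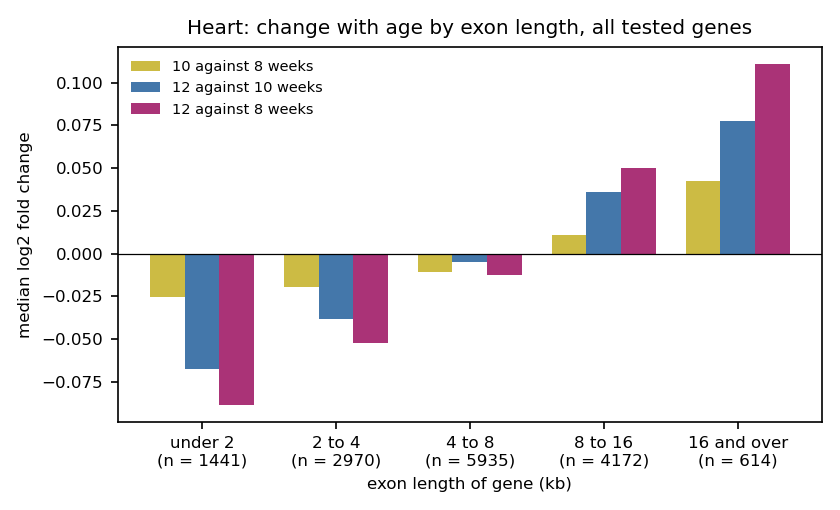
Median log2 fold change of all genes tested in heart, in 5 classes of exon length (kb, with the number of genes in each), for the 3 comparisons of ages. The medians run from -0.09 in the shortest class to 0.11 in the longest for 12 against 8 weeks, from -0.03 to 0.04 for 10 against 8 weeks and from -0.07 to 0.08 for 12 against 10 weeks.

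The myomesins link thick filaments at the M-band. Myom1 had a log2 fold change of 0.26 ± 0.09 from 8 to 12 weeks (edgeR adjusted p = 0.093), and Myom2 of -0.30 ± 0.09 from 8 to 10 weeks (adjusted p = 0.13) and 0.32 ± 0.09 from 10 to 12 weeks (adjusted p = 0.23). Myom3 was low, at 1.67 to 4.02 CPM. All 4 genes of the titin and M-band group were higher at 12 than at 10 weeks, each with an unadjusted p under 0.05, and none passed after adjustment.

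At the Z-disc, where actin filaments of neighbouring sarcomeres are crosslinked, none of 9 genes passed in heart. Actn2, the crosslinking α-actinin, was at 2034, 2128, 2046 and 1908 CPM at 8 weeks, at 2032, 1835, 1804 and 1715 CPM at 10 weeks, and at 2061, 1918, 1818 and 2082 CPM at 12 weeks. Its ages overlapped, and its change from 8 to 12 weeks was -0.04 (interval -0.20 to 0.11). The other Z-disc genes had log2 fold changes between -0.16 (Nexn) and 0.32 (Synpo2l) from 8 to 12 weeks. Ankrd1, a stretch-responsive gene, spread widely within ages, at 406 to 623 CPM at 8 weeks, 333 to 807 at 10 weeks and 447 to 850 at 12 weeks.

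Among the genes that tie sarcomeres to each other and to the membrane, Des and Dmd came closest to a call. Des, the muscle intermediate filament, was at 2018, 2066, 2061 and 2130 CPM at 8 weeks, at 2039, 2016, 1679 and 1800 CPM at 10 weeks, and at 1834, 1574, 1573 and 1909 CPM at 12 weeks. All hearts at 12 weeks lay below all at 8 weeks, and the change was -0.26 ± 0.09 (edgeR adjusted p = 0.085, DESeq2 0.028). Dmd, dystrophin, was at 102, 160, 151 and 134 CPM at 8 weeks, at 165, 154, 157 and 144 CPM at 10 weeks, and at 175, 192, 163 and 166 CPM at 12 weeks. The 12-week hearts were all above the 8-week hearts, and the change was 0.35 ± 0.11 (edgeR adjusted p = 0.072, DESeq2 0.035). Cryab, the desmin chaperone αB-crystallin, Flnc, Xirp1 and Xirp2 had changes between -0.12 and 0.16 and did not pass.

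Of 45 other sarcomere and Z-disc genes outside the list, 39 were tested in heart, and from 8 to 12 weeks Cavin4 rose (log2 fold change 0.41 ± 0.10, edgeR adjusted p = 0.034) and Obsl1 fell (-0.33 ± 0.09, adjusted p = 0.047). Of 13 tested genes of the dystrophin complex, Utrn (utrophin, the relative of dystrophin) rose by 0.39 ± 0.09 (adjusted p = 0.029) and Lama2 by 0.42 ± 0.12 (adjusted p = 0.0499), and Cav3 fell by 0.39 ± 0.10 (adjusted p = 0.037). Of 16 intercalated disc genes, Nectin2 and Ldb1 fell. None of these lists had a call between 10 and 12 weeks.

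Markers of other cell types were read beside these. Of all genes tested, 4.56% were called from 8 to 12 weeks and 1.06% from 8 to 10 weeks. Of 10 fibroblast markers, Pdgfra and Lum rose from 8 to 12 weeks and Col3a1, Lum and Pdgfra from 8 to 10 weeks. Their list had a median log2 fold change of 0.15 from 8 to 12 weeks, 0.34 from 8 to 10 weeks and -0.23 from 10 to 12 weeks. The list summed to 874 to 927 CPM at 8 weeks, 1006 to 1268 at 10 weeks and 928 to 1061 at 12 weeks, with no marker at 0. Of 10 endothelial markers, Tie1 and Fabp4 fell from 8 to 12 weeks, while the median log2 fold change of the list was -0.02. The list summed to 896 to 1065 CPM over all hearts. Of 10 blood markers 6 were tested and none was called, with a median log2 fold change of 0.55 from 8 to 10 weeks, -0.88 from 10 to 12 weeks and -0.30 from 8 to 12 weeks and sums of 207 to 864 CPM. Of 9 tested smooth muscle markers none was called, with a median of -0.24 from 8 to 12 weeks and sums of 408 to 493 CPM. Brown fat markers, 3 of 7 tested, had none called, a median of 0.01 from 8 to 12 weeks and sums of 137 to 201 CPM. Their part in the changes of the sarcomere genes was not tested. Of 18 skeletal muscle markers, 11 were under 1 CPM in every heart and none was called, and the list summed to 1210 to 1758 CPM.

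In kidney, 38 of the 42 genes had ranges wholly below those of the heart, 4 overlapped them, and 12 had a median at or under 3 counts. Levels were scaled apart in each tissue, and the share of all genes with ranges apart between tissues was not counted. These orders, here and in liver, are therefore descriptions of the members alone. The highest per kilobase were Cryab at 10.3 CPM per kb, Tpm1 at 8.51 and Pdlim5 at 8.30, genes that many cell types use. Mybphl had no count in any kidney, which allows up to 3 counts per library, while Myl2, Csrp3 and Xirp2 each had counts in 1 of 12. Myh6 was present in every kidney at 0.230 to 1.43 CPM.

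None of the 26 members tested in kidney passed at any age by edgeR, beside 0.0567% (12 against 8 weeks), 0.929% (10 against 8) and 0.482% (12 against 10) of all 17649 genes. There were 1, 5 and 3 members with an unadjusted p under 0.05, beside 11.7%, 16.5% and 16.4% of all genes, and DESeq2 called Tpm1 higher at 10 than at 8 weeks. Cryab was at 49.5, 39.97, 33.2 and 35.0 CPM at 8 weeks, at 75.2, 52.3, 118 and 50.7 CPM at 10 weeks, and at 50.5, 28.8, 41.0 and 37.0 CPM at 12 weeks. Its 10-week kidneys were all above its 8-week kidneys (log2 fold change 0.91 ± 0.24, edgeR adjusted p = 0.084), with replicate 3 highest, and 42.2% of its exon bases are shared with neighbouring genes. Tpm1 was between 62.8 and 75.7 CPM and Pdlim5 between 92.8 and 109 CPM over all 12 kidneys.

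In liver, Myh6, Myl2, Mybphl, Myom2 and Myoz2 had no count in any of 12 libraries, and 19 of the 42 had a median at or under 3 counts. The highest per kilobase were Pdlim5 at 5.42 CPM per kb, Csrp3 at 2.92 and Tpm1 at 2.47. Csrp3, the muscle LIM protein of the Z-disc, was at 7.69 to 16.3 CPM in every liver but had counts in only 1 kidney. Neb was the 1 member whose liver range (9.27 to 28.4 CPM) lay above its heart range.

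None of the 20 members tested in liver passed at any age by edgeR, beside 0.239%, 0.0204% and 0.0545% of 14672 genes for 12 against 8, 10 against 8 and 12 against 10 weeks, with 2, 4 and 2 at an unadjusted p under 0.05, beside 15.1%, 14.3% and 14.1%. In 1 liver (replicate 1 at 12 weeks) Tnnt2 was at 1.03 CPM and Flnc at 1.27 CPM, over 5 times their medians. Csrp3 was at 9.27, 10.3, 8.74 and 7.69 CPM at 8 weeks, at 12.0, 11.3, 12.4 and 9.34 CPM at 10 weeks, and at 11.4, 15.9, 16.3 and 12.5 CPM at 12 weeks. All 12-week livers lay above all 8-week livers (log2 fold change 0.64 ± 0.14, edgeR adjusted p = 0.086), and DESeq2 called it. Neb was at 28.4, 18.1, 22.7 and 26.1 CPM at 8 weeks, at 10.2, 9.27, 15.5 and 17.1 CPM at 10 weeks and at 21.1, 22.8, 18.5 and 22.3 CPM at 12 weeks, with its 10-week livers below both other ages. DESeq2 called that dip in both directions and edgeR did not (adjusted p = 0.12 and 0.13). The spread between replicates was wider in liver, with a common coefficient of variation of 0.206 against 0.118 in heart and 0.113 in kidney.

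Whether the change from 8 to 12 weeks differed between heart and another tissue was tested as an interaction. Against kidney none of the 40 members passed, beside 0.112% of 19716 genes, with 2 at an unadjusted p under 0.05. Against liver 2 passed, beside 4.16% of all genes: Tpm2, with a difference of -1.16 ± 0.31 (heart minus liver, edgeR adjusted p = 0.032), and Csrp3, with -0.63 ± 0.18 (adjusted p = 0.049). Tpm2, β-tropomyosin, had log2 fold changes of -0.23 in heart and 0.93 in liver, and Csrp3 of 0.01 in heart and 0.64 in liver. Neither gene passed within heart or within liver alone. The fit treated heart and liver libraries as separate animals, which the labels do not settle. Csrp3 lost its call with a replicate block (adjusted p = 0.063), RLE factors (0.060) and limma-voom (0.061), and Tpm2 with limma-voom (0.088).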

How the data were processed

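The authors extracted RNA from whole tissue, sequenced polyA libraries as paired reads, checked them with FastQC 0.11.9, trimmed them with cutadapt 4.2 and aligned them with STAR 2.7.11b to GRCm39 (tools and build per the submitters' processing notes). They deposited whole-number counts of read pairs per gene for each library, from which the unstranded column was used, and pairs in bases shared by genes, or mapped to several places, are not in it. Rows that name no gene held 26.8% to 29.8% of pairs in heart, 21.8% to 23.6% in kidney and 21.2% to 31.4% in liver, and were left out. Here, genes with a mean count of 10 or more, and a count in at least 2 libraries, in at least 1 age group of a tissue were tested per tissue with edgeR 4.0.16 (TMM factors, quasi-likelihood test, 3 ages in 1 fit, Benjamini-Hochberg over all tested genes). The interaction used all 36 libraries of the 3 tissues in 1 fit with 9 group means. The fit was tested on simulated data. Levels are TMM-scaled CPM, and log2 values for correlations added a prior count of 2. Exon lengths and positions came from GENCODE on GRCm39, in which 78168 of 78239 identifiers matched. Isoform shares and Myl7 relations used exact and 100000-resample permutation tests. Named genes were members called in heart plus a set of 13 main sarcomere genes, and for kidney and liver the 3 highest per kilobase, any called, and any with 1 library over 5 times the median and over 1 CPM. The members and all gene lists were chosen with earlier results of these data known. Alternatives included DESeq2 1.42.0, limma 3.58.1 (voom), other scaling and filters, 1 strand, a length term, a replicate block and leaving out each library. Intervals come from the standard errors of the edgeR fit and a normal distribution, and include the spread between replicates. They are narrower than the edgeR test implies. For Mylk3 in heart from 10 to 12 weeks the interval was 0.0027 to 0.27, while the unadjusted edgeR p was 0.062. Floors of 3 counts cover counting error only. A gene outside the members is not reported here.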

Additional observations from a re-analysis of the deposited data

Results flagged for a closer look

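In 66 groups of 4 libraries the highest and lowest values were tested with Dixon's ratio, which chance passes in about 1 group of 20. In heart, Ttn was high in replicate 1 at 8 weeks (2549.4 CPM), and Myh7 (118.5 CPM) and Mybpc3 (3748.3 CPM) were low in replicate 4 at 8 weeks. Myh6 was low in replicate 4 at 10 weeks (19559 CPM). Replicate 4 at 12 weeks was high for Mybpc3 (4791.6 CPM), Tnnt2 (7591.5 CPM) and Tnni3 (4809.1 CPM). In liver, replicate 1 at 12 weeks was high for Tnnt2 (1.0334 CPM) and Flnc (1.2745 CPM). In kidney, Pdlim5 was low in replicate 1 at 8 weeks (101.5 CPM). The change from 8 to 12 weeks differed between heart and liver for Tpm2 (-1.1555, heart minus liver, log2) and Csrp3 (-0.62565) by the interaction test of edgeR.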

How the results depend on the processing

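Counts of called members moved by over 1.5 times under these alternatives. With DESeq2 there were 7 in heart from 8 to 12 weeks (Des, Dmd and Myom1 added, beside 8.22% of all genes) and 1 from 10 to 12 weeks (0.357%), 1 in kidney from 8 to 10 weeks (3.76%), and 1 in each liver comparison (2.43% to 3.31%). With no count filter there were 8, 6 and 4 in heart (12 against 8, 10 against 8, 12 against 10 weeks, beside 3.09%, 2.18% and 0.84%), 1, 1 and 2 in kidney (1.22%, 2.39% and 2.23%) and 1, 1 and 1 in liver (0.96%, 1.02% and 0.788%). For heart minus liver 1 member, Tpm2, was called with RLE factors and 0 with limma-voom. Without mitochondrial genes in the total the members took 11.955% of heart pairs (median). The Myl4 over Myl3 ratio (12 against 8 weeks) was -0.0028 on 1 strand, and Mybpc3 (12 against 8 weeks) was 5.96e-05 with a length term, both of changed sign. The causes were not tested.

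Leaving out 1 library at a time gave 1 to 10 calls in heart from 8 to 12 weeks (all genes 1.14% to 12.2%), 1 to 3 from 8 to 10 weeks (0.211% to 2.7%), and 0 to 1 in kidney (10 against 8 and 12 against 10 weeks) and in liver (10 against 8 weeks). From 8 to 12 weeks 1 call, Lmod3, was left without replicate 2 or 3 at 8 weeks or replicate 1 at 12 weeks. Signs changed for Mybpc3 from 8 to 12 weeks (-0.081503 to 0.013526) and from 8 to 10 weeks for Myh6 (-0.066678 to 0.033954) and Myl2 (-0.066467 to 0.065523). They changed too for log2 ratios: Tnni1 over Tnni3 from 8 to 10 weeks (-0.05644 to 0.68158), Myl4 over Myl3 from 8 to 12 (-0.18337 to 0.20519), 8 to 10 (-0.14313 to 0.16181) and 10 to 12 weeks (-0.214 to 0.15833), Myl7 over Myl2 from 8 to 12 weeks (-0.052455 to 1.0947) and Tpm2 over Tpm1 from 8 to 10 weeks (-0.13451 to 0.012361).

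Within a tissue, deviations of same-numbered libraries of different ages had correlations of -0.0858 to 0.154 (heart), -0.166 to 0.135 (kidney) and -0.265 to 0.171 (liver). Differently numbered libraries had -0.203 to 0.13, -0.172 to 0.206 and -0.19 to 0.24, ranges that overlap these. Such correlations cannot show whether a number stands for a shared cage or batch. Whether a number links the tissues of a mouse was not tested. With a replicate block there were 4 calls in heart from 8 to 12 weeks (4.83% of all genes), 2 from 8 to 10 weeks (Myh7 and Acta1, both lower, beside 1.53%) and 1 for heart minus liver (Tpm2, while Csrp3 lost its call).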
